A study of Mus musculus with 4 samples.

Results

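The genes described here are 32 genes of glycolysis and of hypoxia-linked glucose use, chosen by symbol from the 50559 genes of a count table for mouse embryonic stem cells (ESCs). They comprise 2 glucose transporters, 2 hexokinases, 9 genes of upper glycolysis, 7 of lower glycolysis, 6 of lactate and pyruvate handling and 6 regulators or targets of HIF1A. All 32 had enough counts to be tested, among 18144 genes tested in all. RNA-seq was performed on E14 ESCs, an established mouse line, transfected with siCnot1, an siRNA against Cnot1, or with siNT, a non-targeting siRNA. Both groups received 150 nM siRNA, were collected 48 h later and hold 2 libraries each, and both were grown without feeder cells on gelatin in serum replacement medium with leukemia inhibitory factor. The CNOT1 protein holds together the CCR4-NOT complex, a deadenylase that shortens poly(A) tails and so promotes mRNA decay. The study used ESCs with a MERVL-driven tdTomato transgene, which reports the 2C-like state, and whether these libraries carry it is not given in the labels. Oxygen and glucose levels of the cultures are not given in the sources used here. The study's methods call the 2 libraries of a group independent biological replicates, while the labels give only a replicate number.

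Glycolysis splits glucose into pyruvate in the cytosol, and most of its steps are catalyzed by families of isozymes encoded by separate genes. Pyruvate is then reduced to lactate and exported, or enters mitochondria for oxidation. When oxygen is low, prolyl hydroxylases and VHL no longer mark HIF1A for degradation, and HIF1A with its partner ARNT raises transcription of many glycolytic genes. Mouse ESCs are known for a high rate of glycolysis, and MYC proteins also drive many of the same genes.

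Most of these mRNAs were lower after Cnot1 knockdown, the majority by less than 2-fold. At an adjusted p under 0.05 (edgeR quasi-likelihood fit over all genes tested, p-values adjusted by the Benjamini-Hochberg method), 18 of the 32 genes fell and 2 rose in siCnot1, whereas 14.7% of all genes tested fell and 15% rose, 29.7% in all. The other 12 did not pass the test. Scaling by library totals in place of TMM gave 16 lower and 3 higher, beside 8.61% and 22% of all genes tested. Egln3, Tpi1, Aldoc and Pfkl had the most negative values, while Eno2 and Ldhb rose. The median log2 fold change (siCnot1 against siNT) was -0.34 over the 32 genes and 0.0084 over all genes tested, and 27 of the 32 values were below 0. Abundant genes fell more often in general: 43.7% of the 2447 genes with a mean of at least 100 CPM (counts scaled to library size) passed as lower, with a median of -0.12. Of the 18 genes described here above that level, 12 fell and 1 rose, with a median of -0.35. At an unadjusted p of at most 0.05 and a 2-fold change, the rule used in the study, 3 genes were lower (Egln3, Tpi1 and Aldoc) and 1 was higher (Eno2), beside 1.8% and 6.18% of all genes tested (7.98% in all). Both siCnot1 libraries lay below both siNT libraries for 23 genes and above them for 4, beside 31.2% and 32.7% of all genes tested (63.9% in all).

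The siNT libraries differed from each other in these genes, and this touches every result below. The value in siNT replicate 1 was above that in siNT replicate 2 for 28 of the 32 genes, against 50.3% of all genes tested. The median log2 gap between them was 0.24 for the 32 genes and 0.0015 for all genes tested. Between the siCnot1 replicates the median gap was 0.014, with replicate 1 above replicate 2 in 59.4% of the genes. Slc16a3 had the widest siNT gap at 2.08-fold, followed by Bnip3 at 1.73-fold. Without siNT replicate 1, 9 of the 32 genes passed as lower and 2 as higher, beside 4.49% and 3.83% of all genes tested in that fit, and the median was -0.20. All 18 genes that fell in the full fit also had negative values there, between -0.13 and -0.94. Without siNT replicate 2, 18 genes passed as lower and 2 as higher, beside 5.82% and 5.33%, and the median was -0.44. With no filter on low counts, 10 passed as lower and 2 as higher, beside 4.78% and 4.3% of the genes then tested. Calls that need siNT replicate 1 are named gene by gene below, and what set the siNT libraries apart was not tested.

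**Figure D1:**
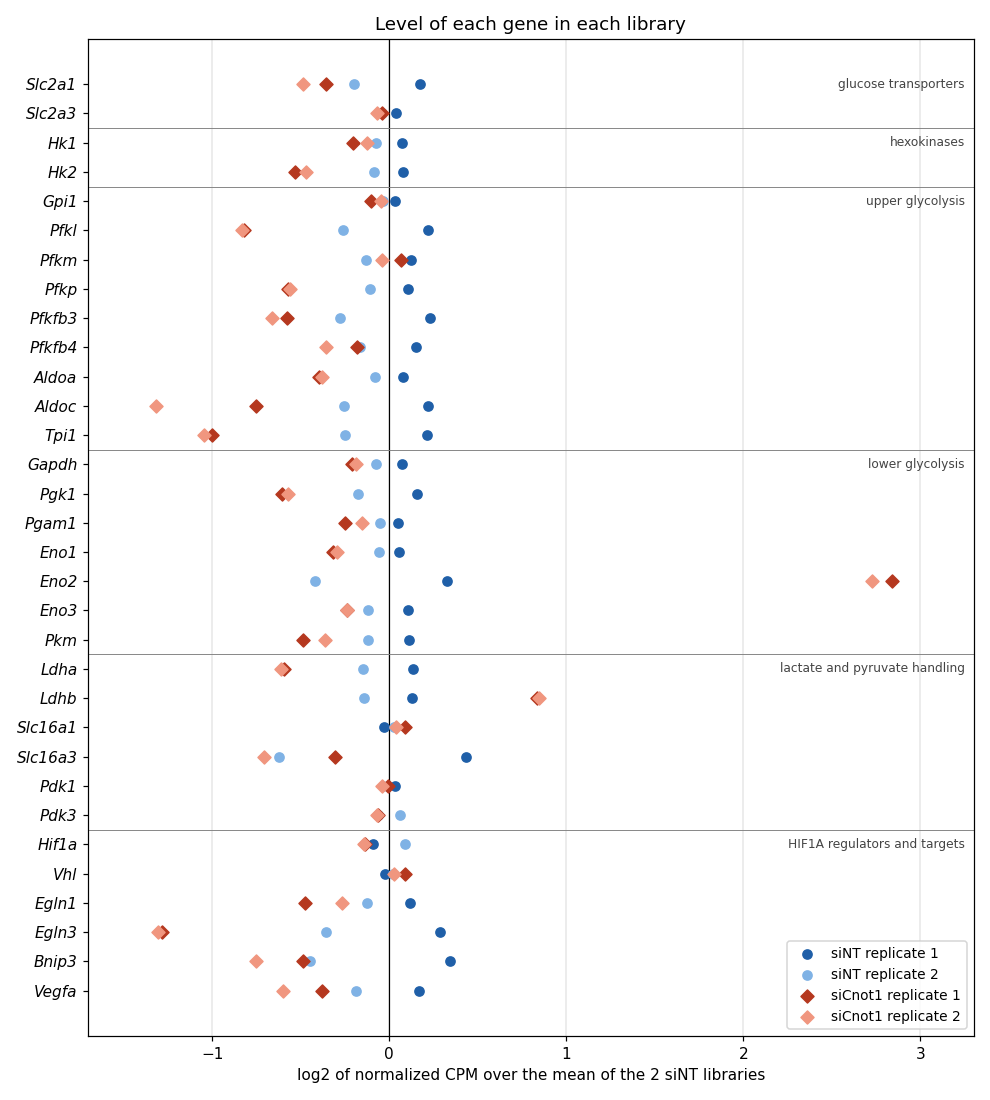
Normalized CPM of each of the 32 genes in each library, as log2 of the ratio to the mean of the siNT libraries (x axis), with genes grouped by role (y axis). Circles are siNT and diamonds siCnot1 libraries, and the dark circles of siNT replicate 1 lie to the right of the light circles of siNT replicate 2 in 28 of 32 genes.

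Depth was alike, with 32135824 to 32557440 counts on genes per library. The share of counts on mitochondrial genes was 1.17% and 1.4% in the siNT libraries, beside 2.11% and 1.76% in the siCnot1 libraries, and its part in the results was not tested. Cnot1 fell from 913 and 986 CPM in siNT to 185 and 192 CPM in siCnot1 (log2 fold change -2.33, adjusted p = 2.37e-18). The 32 genes together took 1.19% and 1.05% of all counts in the siNT libraries, and 0.966% and 0.975% in the siCnot1 libraries. ESC markers were high in every library, with a summed level of 6569 to 6790 CPM in siNT and 5532 to 5873 CPM in siCnot1. Of the 8, 6 fell, and all 8 lay above 100 CPM, a level at which 43.7% of genes tested fell. The 7 markers of 2-cell-like cells, a rare state in ESC cultures, summed to 46.1 and 50.4 CPM in siNT and to 132 and 137 CPM in siCnot1. Of these, 5 rose, beside 15% of all genes tested. Tcstv1, among the 5, had only 1 and 2 counts in siNT and 11 in each siCnot1 library. Zscan4d, the most abundant of the 7, stood at 24.4 and 24.3 CPM in siNT and at 65.6 and 70.1 CPM in siCnot1. Primitive endoderm markers summed to 12.6 to 14.8 CPM in siNT and 22.1 to 22.9 CPM in siCnot1, and 2 of 6 rose. Trophectoderm markers summed to 91.5 to 94.6 CPM in siNT and 68.2 to 72.7 CPM in siCnot1, with 2 of 6 lower and Cdx2 and Elf5 under 1 CPM throughout. Formative and primed markers summed to 102 to 110 CPM in siNT and 82.8 to 82.9 CPM in siCnot1, with 2 of 5 lower and T at 0 in every library. Fibroblast markers summed to 1149 to 1197 CPM in siNT and 1212 to 1264 CPM in siCnot1, almost all of it Fn1, with 1 of 6 higher and Col3a1 at 0. The part of these cell states in the changes below was not tested, and in bulk RNA fewer cells of a type and less RNA per cell cannot be told apart.

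Promoter sequences are shown because HIF1A and MYC act through short letters that can be looked for directly, and because the genes printed span both directions of change. The windows run from 250 bases before to 50 bases after each annotated start, from RefSeq on GRCm38.p6, and 31 of the 32 genes matched by symbol, some with more than 1 start, giving 45 windows. The letters ACGTG and GCGTG, the core of the hypoxia response element, were searched on both strands. ACGTG is also part of CACGTG, the E-box that MYC binds. At least 1 of these cores was present in 35 of the 45 windows (77.8%), against 58.2% of 16337 windows of genes tested and 43.8% of all 32851 windows. The genes were chosen in part for a link to hypoxia, so a higher share may come from that choice. Some windows of the same gene overlap, as for Eno1 and Aldoa, so the same match can count more than once. By call, 17 of 18 genes that fell, 1 of 2 that rose and 9 of 11 that did not pass had a match in a window. Tpi1 is the gene that fell without a match. These counts are per gene, over any of its windows, and the matching share of all genes was not computed. They therefore cannot be read against the shares of windows. A match is a description of the sequence and not a bound site. Below are the 250 bases before the start for Ldha and Ldhb, which moved in opposite directions, for Pgk1 and Egln3, which fell, and for Eno2, which rose most. Ldha has 2 windows, and the one with more matches is printed. The other Ldha window holds 2 matches, 0 of them ACGTG, and no CACGTG. Capitals mark the cores in either orientation (CACGT and CACGC on the strand shown are ACGTG and GCGTG on the other).
Ldha (chr7:46845554-46845803, plus strand): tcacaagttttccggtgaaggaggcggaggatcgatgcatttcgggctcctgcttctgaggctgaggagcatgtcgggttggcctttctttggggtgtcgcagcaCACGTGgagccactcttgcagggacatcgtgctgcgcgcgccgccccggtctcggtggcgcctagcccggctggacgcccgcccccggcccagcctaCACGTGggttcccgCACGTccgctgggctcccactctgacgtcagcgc
Pgk1 (chrX:106186850-106187099, plus strand): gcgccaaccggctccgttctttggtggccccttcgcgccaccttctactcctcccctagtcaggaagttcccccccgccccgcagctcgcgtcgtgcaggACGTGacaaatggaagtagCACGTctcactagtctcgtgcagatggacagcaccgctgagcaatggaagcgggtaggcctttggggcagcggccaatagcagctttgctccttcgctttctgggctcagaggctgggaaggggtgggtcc
Egln3 (chr12:54203875-54204124, minus strand): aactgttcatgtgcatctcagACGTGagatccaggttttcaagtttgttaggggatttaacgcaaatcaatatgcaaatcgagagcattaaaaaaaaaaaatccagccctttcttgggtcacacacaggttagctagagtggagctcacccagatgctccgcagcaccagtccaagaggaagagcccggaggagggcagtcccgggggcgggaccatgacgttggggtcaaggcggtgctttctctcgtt
Ldhb (chr6:142507958-142508207, minus strand): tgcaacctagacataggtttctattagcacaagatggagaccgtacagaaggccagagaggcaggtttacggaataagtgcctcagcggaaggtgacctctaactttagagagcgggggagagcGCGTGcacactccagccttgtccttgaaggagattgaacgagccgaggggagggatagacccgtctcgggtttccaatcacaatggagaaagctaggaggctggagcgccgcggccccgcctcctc
Eno2 (chr6:124769674-124769923, minus strand): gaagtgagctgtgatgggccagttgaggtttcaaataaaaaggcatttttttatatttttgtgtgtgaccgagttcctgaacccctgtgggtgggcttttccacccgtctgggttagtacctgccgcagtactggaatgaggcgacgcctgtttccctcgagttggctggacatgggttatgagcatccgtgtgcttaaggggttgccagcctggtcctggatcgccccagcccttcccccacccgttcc
The Ldha stretch holds 5 matches, where each CACGTG counts once per strand, and 2 more lie after the start. That of Pgk1 holds 2, those of Egln3 and Ldhb 1 each, and that of Eno2 none.

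Of the glucose transporters, Slc2a1 fell and Slc2a3 did not pass. Slc2a1, which encodes GLUT1 (GRCm39 chromosome 4, 118965942 to 118994527), was at 457 and 354 CPM in siNT and 317 and 289 CPM in siCnot1. All siCnot1 values lay below all siNT values, and the log2 fold change was -0.42 (SE 0.0795, adjusted p = 2.9e-04). The call was lost without siNT replicate 1 (-0.23, adjusted p = 0.12), without siCnot1 replicate 2 (-0.36, adjusted p = 0.0943) and with DESeq2 (adjusted p = 0.0998). Slc2a3, encoding the high-affinity GLUT3, was the more abundant transporter and stood at 1469 and 1386 CPM in siNT and 1387 and 1360 CPM in siCnot1. These ranges overlapped, with a log2 fold change of -0.06 (adjusted p = 0.465). Per kilobase, Slc2a1 made up 40.5% and 35.8% of the transporter pair in siNT and 33.3% and 31.7% in siCnot1.

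Hexokinases trap glucose in the cell as glucose 6-phosphate. Hk2 (chromosome 6, 82702004 to 82751435), the isozyme most often tied to high glycolytic flux, was at 510 and 455 CPM in siNT and 333 and 348 CPM in siCnot1. It fell to 70.7% of the siNT mean, with a log2 fold change of -0.50 (SE 0.0594, adjusted p = 9.82e-07), and kept its call in every alternative. Hk1, the widely expressed isozyme, had 80.9 and 73.3 CPM in siNT and 66.9 and 70.6 CPM in siCnot1. Its value was -0.17 (adjusted p = 0.0934). Hk2 remained the main isozyme per kilobase, at 85.0% and 84.8% of the pair in siNT and 81.8% and 81.6% in siCnot1.

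In upper glycolysis, 6 of 9 genes fell and none rose. Tpi1, triosephosphate isomerase, which interconverts the products of aldolase, showed the smallest adjusted p among the genes that fell. Tpi1 (chromosome 6, 124787549 to 124791121) was at 205 and 149 CPM in siNT and 88.3 and 85.6 CPM in siCnot1. That is 49.2% of the siNT mean, with a log2 fold change of -1.02 (SE 0.0923, adjusted p = 2.01e-08), and -0.78 (adjusted p = 0.0187) without siNT replicate 1. Pfkl and Pfkp encode the liver and platelet forms of phosphofructokinase, the committed step. Pfkl (chromosome 10, 77822781 to 77845641) went from 233 and 167 CPM to 113 and 112 CPM, a log2 fold change of -0.83 (SE 0.0933, adjusted p = 5.17e-07). Pfkp went from 502 and 433 CPM to 314 and 317 CPM, a log2 fold change of -0.57 (SE 0.0624, adjusted p = 3.41e-07). Both dropped in both siCnot1 libraries below either siNT library and kept their calls in every alternative. The muscle form Pfkm stood at 52.1 and 43.7 CPM in siNT and 50.1 and 46.7 CPM in siCnot1, ranges that overlapped (log2 fold change 0.01, adjusted p = 0.936). Its share of the 3 forms per kilobase came to 13.6% and 14.5% in siNT, beside 21.7% and 20.5% in siCnot1.

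Aldolases split fructose 1,6-bisphosphate. Aldoa, the main form, was at 1122 and 1007 CPM in siNT and 809 and 819 CPM in siCnot1 (log2 fold change -0.39, SE 0.0566, adjusted p = 1.48e-05), and kept its call in every alternative. Aldoc, the form of the nervous system, was scarce, with 14.6 and 10.6 CPM in siNT and 7.46 and 5.05 CPM in siCnot1. Its log2 fold change was -1.01 (SE 0.183, adjusted p = 1.88e-04), and the call was lost without siNT replicate 1 (-0.76, adjusted p = 0.135). Pfkfb3, whose product makes the activator fructose 2,6-bisphosphate, had 30.4 and 21.4 CPM in siNT and 17.4 and 16.4 CPM in siCnot1. It fell by 0.62 on the log2 scale (SE 0.131, adjusted p = 8.47e-04), a call lost without siNT replicate 1 (-0.35) and without siCnot1 replicate 2 (-0.58). Its relative Pfkfb4 was low, at 4.24 to 6.04 CPM across libraries, and its value of -0.27 did not pass (adjusted p = 0.358). Gpi1, the isomerase that follows hexokinase, was abundant, at 419 to 461 CPM across libraries, and had a value of -0.07 (adjusted p = 0.35).

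**Figure D2:**
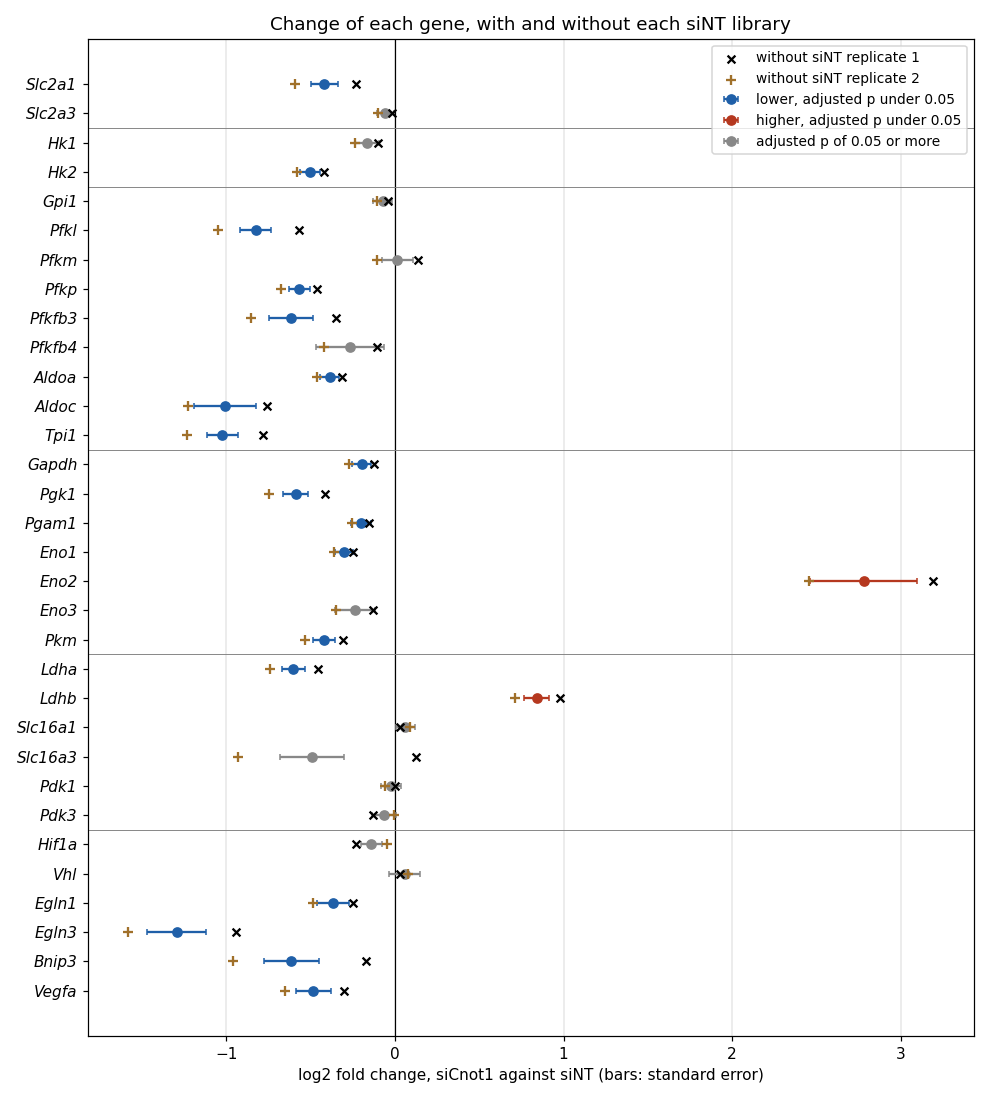
Log2 fold change of each gene (x axis, siCnot1 against siNT), with the standard error as bars and colors for the call at an adjusted p under 0.05. Crosses and plus signs give the value without siNT replicate 1 and without siNT replicate 2; Eno2 stands alone at 2.78 and most other values lie between -1.29 and 0.

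In lower glycolysis, 5 of 7 genes fell and 1, Eno2, rose. Pgk1 (chromosome X, 105230706 to 105247305), phosphoglycerate kinase, makes the first ATP of the pathway. It was at 502 and 398 CPM in siNT and 295 and 303 CPM in siCnot1, a log2 fold change of -0.59 (SE 0.0735, adjusted p = 1.93e-06) that kept its call in every alternative. Eno1, the ubiquitous enolase, had 1125 and 1037 CPM in siNT and 869 and 882 CPM in siCnot1. Per kilobase of deposited exon length it ranked first of the 32 genes (539 CPM per kilobase in siNT and 437 in siCnot1). That ranking depends on the lengths, which are 2005 bases for Eno1 and 7687 for Pkm, a gene with more CPM. The Eno1 log2 fold change was -0.30 (SE 0.0545, adjusted p = 1.61e-04). Its call held in every alternative, but only just without siNT replicate 1 (-0.25). The near-identical copy Eno1b held counts equal to 29.9% of those of Eno1, so reads may be split between them, and the value was -0.30 (adjusted p = 2.2e-04) with both summed.

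Pkm encodes pyruvate kinase, the last step, and had the most CPM of the 32 genes, with 2892 and 2459 in siNT and 1912 and 2083 in siCnot1. Its log2 fold change was -0.42 (SE 0.0637, adjusted p = 2.22e-05), and the adjusted p rose to 0.0587 (value -0.31) without siNT replicate 1. Gapdh, glyceraldehyde 3-phosphate dehydrogenase and a common reference gene, was at 458 and 413 CPM in siNT and 376 and 383 CPM in siCnot1. Pgam1, phosphoglycerate mutase, was at 609 and 568 CPM in siNT and 494 and 529 CPM in siCnot1. The groups did not overlap for either gene, and both values were -0.20 (adjusted p = 0.0116 for Gapdh and 9.08e-03 for Pgam1). Gapdh passed in none of the fits without siNT replicate 1 (-0.13), siCnot1 replicate 1 (-0.19) or siCnot1 replicate 2 (-0.22). Pgam1 did not pass without siNT replicate 1 (-0.16), siNT replicate 2 (-0.25) or siCnot1 replicate 1 (-0.16), and scaling by library totals left Gapdh at -0.09 and Pgam1 at -0.09, neither past the test.

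Eno2, the neuronal enolase (chromosome 6, 124737016 to 124746636), moved the other way. The siNT libraries held 25 and 15 raw counts of it and the siCnot1 libraries 154 and 142, or 0.804 and 0.479 CPM against 4.60 and 4.24 CPM. The groups were far apart, with a log2 fold change of 2.78 (SE 0.319, adjusted p = 6.49e-07), and values from 2.45 to 3.19 over the alternatives. Eno2 stayed a trace part of the family, at 0.0423% and 0.0273% of enolase counts per kilobase in siNT and 0.312% and 0.284% in siCnot1. Eno3, the muscle form, had 19.6 and 16.8 CPM in siNT and 15.4 CPM in both siCnot1 libraries, and its value of -0.24 did not pass (adjusted p = 0.136). Exons of Eno3 overlap those of Pfn1 on the other strand by 1257 bases, and Pfn1 had 18904 counts over the siNT libraries and 13820 over the siCnot1 libraries. In all, 9 of the 32 genes overlap an exon of another gene on the other strand, namely Slc2a1, Hk1, Pfkm, Pfkp (285 bases with Pitrm1), Tpi1, Eno3, Pkm, Ldha and Slc16a3. The strand setting used for counting is not given in the sources used here, so reads in these stretches may belong to either gene.

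The lactate dehydrogenases changed in opposite directions. Ldha, the form that favors lactate production from pyruvate (chromosome 7, 46491698 to 46505051), was at 590 and 484 CPM in siNT and 355 and 352 CPM in siCnot1. It fell by 0.60 on the log2 scale (SE 0.0683, adjusted p = 5.37e-07). Ldhb, the form that favors the reverse reaction (chromosome 6, 142435975 to 142453683), was at 86.6 and 71.9 CPM in siNT and 141 and 143 CPM in siCnot1. It rose 1.79-fold, a log2 fold change of 0.84 (SE 0.0734, adjusted p = 1.3e-08), the smallest adjusted p of the 32 genes. Both calls held in every alternative. The gap between the siNT replicates was similar in the pair, 1.22-fold for Ldha and 1.20-fold for Ldhb, and their shares differed by less than 0.5 percentage points within a group. Per kilobase, Ldha was 62.5% and 62.2% of the pair in siNT and 38.0% and 37.6% in siCnot1, a difference of -24.5 percentage points. These shares depend on the deposited exon lengths, 5342 bases for Ldha and 1304 for Ldhb. In raw counts, without division by length, Ldha stayed the larger form, at 87.2% and 87.1% in siNT against 71.5% and 71.2% in siCnot1. Which form had more transcripts in siCnot1 therefore cannot be read from the shares per kilobase. An exact two-sided permutation test of 2 against 2 libraries gave p = 0.333 for this share, the smallest p this design allows, as it did for most of the other shares.

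**Figure D3:**
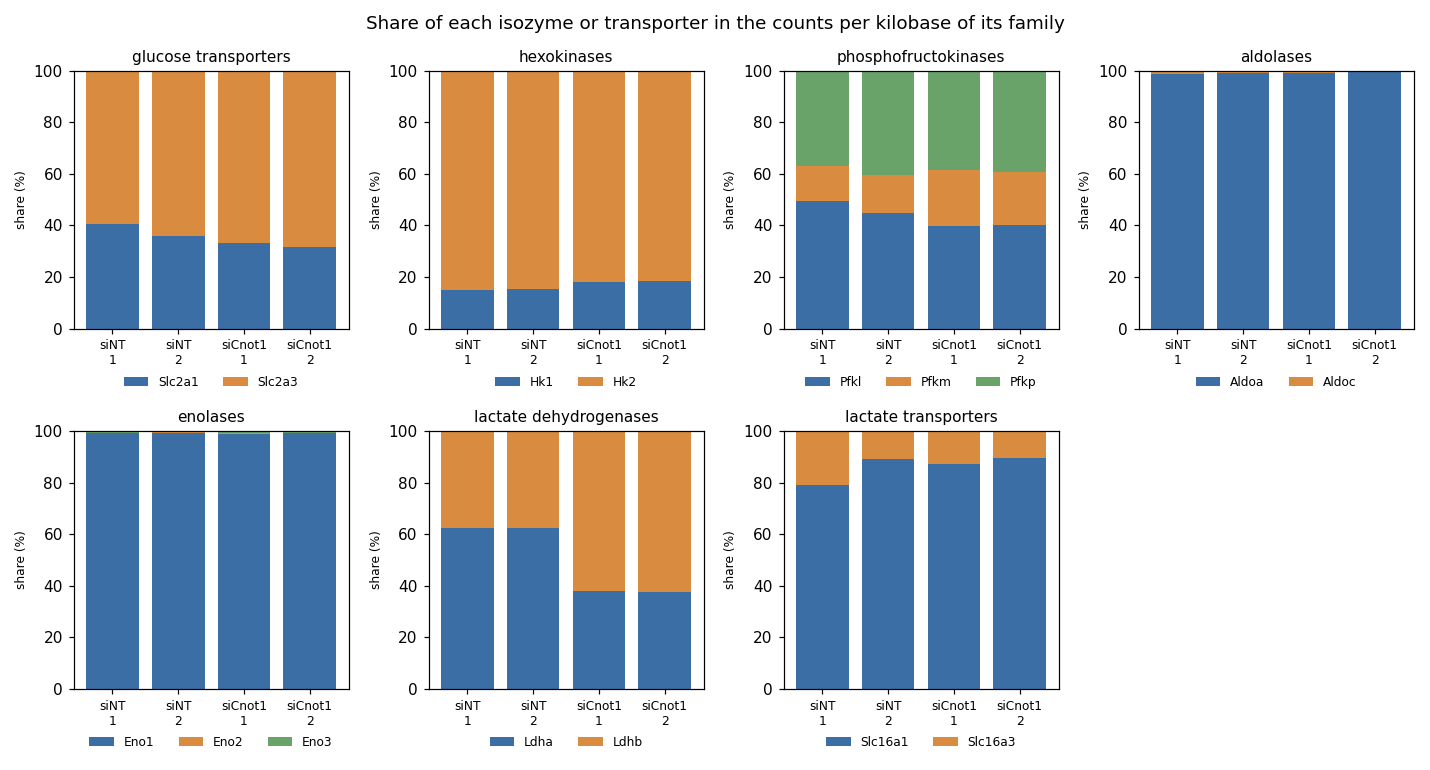
Share of each isozyme or transporter (y axis, percent of the family's counts per kilobase) in each of the 4 libraries (x axis), with a panel per family. Ldha falls from 62.5% and 62.2% to 38.0% and 37.6%, and Pfkm takes 21.7% and 20.5% of the phosphofructokinases in siCnot1. The shares depend on the deposited exon lengths. In raw counts (not drawn), Ldha holds 71.5% and 71.2% and Pfkm 10.5% and 9.81% in siCnot1.

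The rest of the lactate and pyruvate genes did not pass. Slc16a1, encoding the lactate transporter MCT1, was at 245 and 254 CPM in siNT and 265 and 256 CPM in siCnot1 (log2 fold change 0.06, adjusted p = 0.445), and passed as higher only when scaled by library totals (0.17, adjusted p = 0.021). Slc16a3, encoding the exporter MCT4, was at 54.3 and 26.1 CPM in siNT and 32.5 and 24.7 CPM in siCnot1. Its exons share 377 bases with those of Csnk1d on the other strand, which had 8800 counts over the siNT libraries and 8831 over the siCnot1 libraries. The Slc16a3 groups overlapped, and the value of -0.49 (SE 0.19, adjusted p = 0.0531) depended on which siNT library was kept, at 0.12 without replicate 1 and -0.93 (adjusted p = 0.0258) without replicate 2. Pdk1 and Pdk3 encode kinases that hold pyruvate dehydrogenase inactive, Pdk1 being a known HIF1A target. Pdk1 stood at 185 to 195 CPM and Pdk3 at 69.8 to 76.2 CPM across libraries, with values of -0.02 (adjusted p = 0.802) and -0.06 (adjusted p = 0.55).

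Of the HIF1A regulators and targets, 4 of 6 fell. Hif1a itself, at 190 and 216 CPM in siNT and 184 CPM in both siCnot1 libraries, had a value of -0.14 (SE 0.0626, adjusted p = 0.0993). Vhl, the ubiquitin ligase subunit that recognizes HIF1A, was at 30.9 to 33.4 CPM across libraries (0.06, adjusted p = 0.701). These values are mRNA levels, and HIF1A is regulated largely as a protein. Egln3, encoding the prolyl hydroxylase PHD3 and itself a HIF1A target (chromosome 12, 54225767 to 54250660), had the most negative value of the 32 genes. Egln3 was at 17.7 and 11.4 CPM in siNT and 5.97 and 5.89 CPM in siCnot1, or 40.8% of the siNT mean, with a log2 fold change of -1.29 (SE 0.176, adjusted p = 5.76e-06). Its siNT replicates differed 1.56-fold, and the call held in every alternative, with -0.94 (adjusted p = 0.0347) without siNT replicate 1.

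The other 3 calls of this group were less firm. Egln1, encoding the main oxygen sensor PHD2, was at 54.9 and 46.5 CPM in siNT and 36.5 and 42.1 CPM in siCnot1 (log2 fold change -0.37, SE 0.0963, adjusted p = 5.43e-03), and did not pass without siNT replicate 1 (-0.25) or siCnot1 replicate 1 (-0.27). Vegfa, the angiogenic growth factor, went from 62.5 and 48.9 CPM to 42.8 and 36.8 CPM (-0.48, SE 0.103, adjusted p = 9.18e-04), and did not pass without siNT replicate 1 (-0.30) or siCnot1 replicate 2 (-0.39). Bnip3, a mitophagy receptor and classical hypoxia target, was at 32.2 and 18.6 CPM in siNT and 18.1 and 15.1 CPM in siCnot1. Its log2 fold change was -0.61 (SE 0.163, adjusted p = 5.92e-03). Without siNT replicate 1 the value was -0.17 (adjusted p = 0.509). The Bnip3 call was also lost without siCnot1 replicate 1 (-0.76), without siCnot1 replicate 2 (-0.49) and with DESeq2 (adjusted p = 0.29).

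Genes around the pathway were counted in 8 further lists of 129 genes, 119 of them tested. Of these, 30 fell and 17 rose (25.2% and 14.3%), with a median of -0.07. Among all genes tested, 14.7% fell and 15% rose. Scaled by library totals, 20 of the 119 fell and 23 rose, beside 8.61% and 22% of all genes tested. The balance of directions thus moved with the scaling in these lists and over all genes. With each library left out in turn, fewer of the 119 genes passed in either direction, and so did fewer of all genes tested. Among 23 other hypoxia target genes, 7 fell and 6 rose, with a median of 0.07. The transcriptional repressor gene Bhlhe40 was at 57.6 and 39.8 CPM in siNT and 15.2 and 13.5 CPM in siCnot1 (log2 fold change -1.76, adjusted p = 1.47e-09), and the mitophagy receptor gene Bnip3l was at 135 and 129 CPM against 71.6 and 72.7 CPM (-0.87, adjusted p = 1.11e-09). Ak4, a mitochondrial adenylate kinase gene, rose by 0.55 (adjusted p = 2.95e-07). In 21 of these 23 genes siNT replicate 1 again lay above siNT replicate 2. The HIF pathway components showed 3 lower and 1 higher of 10, with Arnt2, a partner of HIF1A, at 0.79 (adjusted p = 1.67e-04), and the VHL complex genes Eloc at -0.31 (adjusted p = 9.62e-04) and Elob at -0.20 (adjusted p = 0.0134).

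Among the other glycolytic isozymes and regulators, 20 of 26 were tested, of which 4 fell and 3 rose. The insulin-responsive transporter gene Slc2a4 was at 1.09 and 1.47 CPM in siNT and 6.75 and 4.06 CPM in siCnot1, a log2 fold change of 2.07 (adjusted p = 8.59e-06). Slc2a8 rose by 0.70 and Pgm2 fell by 0.49. Of 13 genes of pyruvate entry into mitochondria, 3 fell and 1 rose. Pdha1, the catalytic subunit gene of pyruvate dehydrogenase, was at 300 and 305 CPM in siNT and 193 and 214 CPM in siCnot1 (-0.57, adjusted p = 1.61e-07), its partner Pdhb had -0.31 (adjusted p = 3.7e-04), and the pyruvate carboxylase gene Pcx had 0.36 (adjusted p = 2.73e-03). In the TCA cycle 3 of 16 fell and 1 rose, the latter being the malate dehydrogenase gene Mdh2 at 0.68 (adjusted p = 6.44e-09), with Sucla2 at -0.38 and Idh3a at -0.23 among those that fell. Of 9 pentose phosphate genes tested 2 fell (Rpe and Tktl1) and 1 rose (H6pd). Of 12 genes of glycogen and gluconeogenesis 1 fell (Pygl) and 1 rose (Fbp2).

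Of 16 transcriptional regulators of glucose use tested, 7 fell and 3 rose. Mycn, the MYC family member that ESCs express highly, was at 148 and 163 CPM in siNT and 99.3 and 110 CPM in siCnot1 (log2 fold change -0.57, adjusted p = 9.08e-07). Mlxipl, encoding the glucose-responsive factor ChREBP, rose from 2.03 and 1.88 CPM to 9.34 and 6.87 CPM (2.05, adjusted p = 2.84e-07), and Lin28b, an RNA-binding regulator of glucose metabolism, rose by 0.47 (adjusted p = 1.23e-03). For Mycn, siNT replicate 1 lay below siNT replicate 2, unlike most of the 32 genes.

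**Figure D4:**
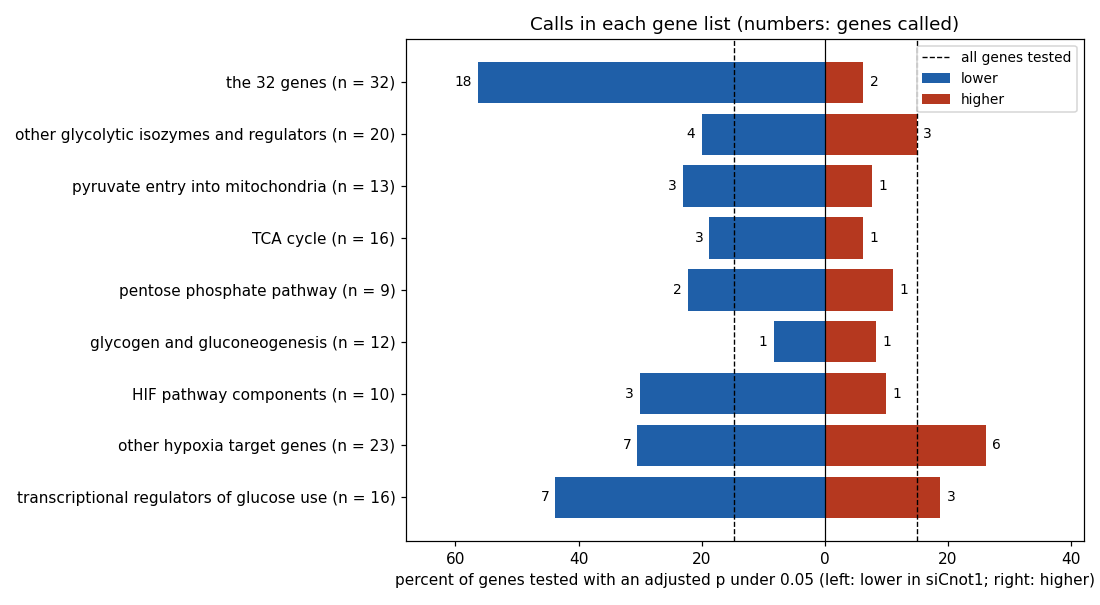
Percent of genes tested that fell (left bars) or rose (right bars) at an adjusted p under 0.05 in the 32 genes and in each of 8 further lists (y axis), with the counts at the bar ends and dashed lines at the shares of all genes tested, 14.7% and 15%. The 32 genes reach 18 lower and 2 higher.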

How the data were processed

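Poly(A)+ RNA-seq of 4 libraries was analysed. The authors deposited raw counts per gene and exon lengths, with no normalization and no pooling of replicates. The submitters' processing notes name fastp 0.19.4, HISAT2 2.2.1, DESeq2 1.40.2 and mm10. The gene positions in the table were taken as GRCm39, since none of the 32 genes had its GRCm38.p6 position. The counting program and strand setting are not given in the sources used here.

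Groups and replicate numbers came from the sample titles. Counts were filtered with filterByExpr (minimum count 10), scaled by TMM and compared with edgeR 4.0.16 (quasi-likelihood, two-sided, condition only, R 4.3.3), with Benjamini-Hochberg adjustment over all genes tested. CPM values are TMM-scaled, and levels per kilobase divide them by the deposited exon length. Rankings and shares per kilobase depend on these lengths, and the lengths of the transcripts present in these cells were not measured. SE is the size of the log2 change over the square root of the F statistic. At these depths 3 counts are 0.0896 to 0.0964 CPM. All 32 genes are named, and for each other list at most the 3 with the smallest adjusted p. Pygl, Fbp2, Rpe, Tktl1 and H6pd fall under that rule too. Members and lists were chosen with earlier results of these data known. Same-numbered libraries did not deviate together over all genes tested (r = -0.0057, 2 pairs), so numbers were not treated as pairs. This r does not describe the 32 genes alone. Replicate 1 lay above replicate 2 in 4 (siNT) and 5 (siCnot1) of the 6 HIF1A regulators and targets. In the 7 lower glycolysis genes it did so in 7 (siNT) and 1 (siCnot1). Alternatives were other scalings, filters and tests (DESeq2 1.42.0, limma-voom 3.58.1), a replicate block, leaving out each library, summing named copies, and shares of raw counts.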

Additional observations from a re-analysis of the deposited data

How the results depend on the processing

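With 2 libraries per group, calls depend on single libraries. Leaving out each library in turn gave 9 to 18 of the 32 genes lower (18 with all libraries), 2 higher each time, 1 to 5 past 2-fold (4), a median log2 fold change from -0.44 to -0.20 (-0.34), a Cnot1 value from -2.39 to -2.28, and 8 to 19 lower (30) and 4 to 11 higher (17) in the 8 other lists. A fit with 1 library in a group assumes that it varies like the other group. In each of these fits, fewer of all genes tested passed in either direction than with all libraries. Of the 20 calls, 11 held in all 13 alternatives and 12 in the 9 that leave out no library. With no filter, 30308 genes were tested in place of 18144, 10 of the 32 were lower, beside 4.78% of all genes, and the other lists had 9 higher and 14 lower. Slc2a1, Pfkfb3, Aldoc, Gapdh, Pgam1, Egln1, Bnip3 and Vegfa then did not pass. Scaling by library totals moved the median of all genes tested to 0.12, left 2 genes past 2-fold, and turned Slc2a3 to 0.0511, Gpi1 to 0.0341, Pdk1 to 0.0830 and Pdk3 to 0.0424, none of which passed. It also gave 16 lower and 3 higher, beside 8.61% and 22% of all genes, and 20 lower and 23 higher in the other lists. Other changes of sign were in genes that did not pass: with single libraries left out Slc16a3 ranged from -0.93 to 0.12, Pdk1 from -0.0579 to 0.0031 and Pfkm from -0.11 to 0.14, the positive ends of Slc16a3 and Pdk1 being without siNT replicate 1 and the negative end of Pfkm without siNT replicate 2. With the replicate block, 19 genes were lower and 2 higher, beside 13.4% and 13.9% of all genes, with a median of -0.33, and the added call was Slc16a3 (-0.43, adjusted p = 0.0142); the numbers share only a name, and the block changed no other call among the 32 genes. DESeq2 gave 16 lower and 2 higher, beside 12.9% and 11.6%. Raw counts in place of counts per kilobase moved the Ldha share change to -15.8 percentage points. Depth limits Eno2, with 15 to 25 counts per siNT library. The cause of these differences was not tested.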
